A study of Mus with 8 samples.

Results

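The genes described here are the PGC-1 coactivators Ppargc1a and Ppargc1b and 6 genes that act with them in mitochondrial biogenesis, the nuclear receptors Esrra and Esrrg, the transcription factors Nrf1 and Gabpa, the mitochondrial DNA factor Tfam and the mitochondrial deacetylase Sirt3. They are 8 of the 22911 genes that could be named on the array. The set was chosen by the Mutant minus Control differences of these same arrays, in which Ppargc1a was among the genes with a difference above 2-fold, so the differences of the 8 genes are given as a description and not as a test. Every array probe whose RefSeq accession belongs to one of the 8 genes was taken, 17 probes in all. Of these, 13 probes of 7 genes were well above background on at least 4 of the 8 arrays, and all 13 were so on all 8. Esrrg was the gene without such a probe.

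RNA came from 8 whole subcutaneous tumours grown from Pan02 cells, a mouse pancreatic cancer line. Control tumours (n = 4) grew in wild-type hosts, and Mutant tumours (n = 4) grew in Ext1 flox/flox; S100a4-Cre hosts, with the Control hosts labelled B6. Tumours were removed 36 to 40 days after transplantation, and each was hybridised to its own Cy3 array. Ext1 encodes a heparan sulfate polymerase, and S100a4 control regions drive Cre in fibroblasts and in some other stromal cells, while the transplanted cancer cells are not the target of Cre. The age and sex of the hosts are not given in the sources used here. The design gives 4 per group, without saying that each tumour came from its own mouse, so p-values measure the spread between these tumours.

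PGC-1 coactivators bind no DNA themselves. They dock on nuclear receptors such as ERR alpha and ERR gamma, the products of Esrra and Esrrg, and on NRF1 and GABP, and raise transcription of nuclear genes for respiration, fatty acid oxidation and mitochondrial DNA upkeep. TFAM carries the signal into the organelle, where it packages mitochondrial DNA and starts its transcription, and SIRT3 removes acetyl groups from matrix enzymes. PGC-1 alpha is the inducible coactivator and is known from muscle, brown fat and liver, where exercise, cold and fasting raise it, while PGC-1 beta is more constant. In bulk RNA, more cells of a type and more transcript per cell cannot be told apart.

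Levels are given as log2 signal with the array's 75th percentile set to 0, and differences as Mutant minus Control on that scale. The arrays were 1 slide with 1 scan, in 2 rows of 2 Control and 2 Mutant tumours each, and 61.5% to 67.2% of probes on each array carried the scanner software's flag for well above background. The Ext1 probe read 3.04, 3.60, 3.64 and 2.02 in Control 1 to 4. In Mutant 1 to 4 it read 2.93, 3.00, 3.41 and 3.24, and since cancer cells keep Ext1 and the deleted part is not known to lie under the probe, it checks neither the deletion nor the labels. Over all 16068 genes tested, limma called 0 genes at an adjusted p under 0.05, or 0%, while 467 genes had an unadjusted p under 0.05. Of the 10 ductal and epithelial markers, 8 were above background on all 8 arrays, whereas Epcam and Cldn4, named after their values were seen, did not pass the filter. Control 4 stood apart. It held the lowest level of the 8 tumours in 35.2% of genes and the highest in 22.4%, while Control 3 held the highest in 25.3%. The fibroblast list level was also highest in Control 4, 2.13 against -1.12 to 0.98 in the other 7 tumours.

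Ppargc1a was the member with a wide difference between the groups. Its brighter probe, A_51_P279038, gave linear signals of 63.6, 64.2, 55.0 and 44.8 for Control 1 to 4. For Mutant 1 to 4 they were 259, 144, 116 and 490. The lowest signals that counted as well above background were 9.67 to 16.1 on these arrays, so the probe was measured in every tumour. On the log2 scale it was at -3.39, -3.53, -3.60 and -3.68 in Control 1 to 4 and at -1.46, -2.21, -2.62 and -0.55 in Mutant 1 to 4. The groups did not overlap, with the lowest Mutant value above the highest Control value, and the Mutant tumours were spread over 2.07 log2 units where the Control tumours spanned 0.30.

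Ppargc1a averaged -3.55 ± 0.13 over the Control tumours (SD, n = 4) and -1.71 ± 0.91 over the Mutant tumours (SD, n = 4). The difference was 1.84 (standard error 0.41), or 3.58-fold. The difference was 1.62 within the first slide row, which holds Control 1, Control 2, Mutant 1 and Mutant 2, and 2.06 within the second, and with the row as a block it stayed at 1.84. It lay between 1.45, without Mutant 4, and 2.14, without Mutant 3, when a tumour was left out. With normexp background correction, which adds an offset of 50 to every signal and so compresses dim probes, it was 1.16, or 2.23-fold.

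A second, dimmer Ppargc1a probe gave the same order of the Mutant tumours. A_55_P2745394 cleared background on 0 of 4 Control arrays. In Mutant 1, 2 and 4 it did so, at -3.99, -4.55 and -2.72, while Mutant 3 was at -5.42. Both probes put Mutant 4 highest, then Mutant 1, Mutant 2 and Mutant 3. Against the lowest signal well above background on the Control arrays, the Mutant mean of the dim probe was at least 2.91-fold higher. The measured means were -6.24 in Control and -4.17 in Mutant tumours. Both probes are assigned to the same RefSeq transcript and are not replicates of each other.

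Among the 16068 genes, 359 (2.23%) were at least 2-fold higher in Mutant tumours, 115 (0.716%) had every Mutant tumour above every Control tumour, and 113 (0.703%) had the reverse. Of the 7 members tested, 1 (Ppargc1a) was in the first set, the same gene was in the second, and 0 were in the third. These counts repeat what the choice of the genes used.

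**Figure D1:**
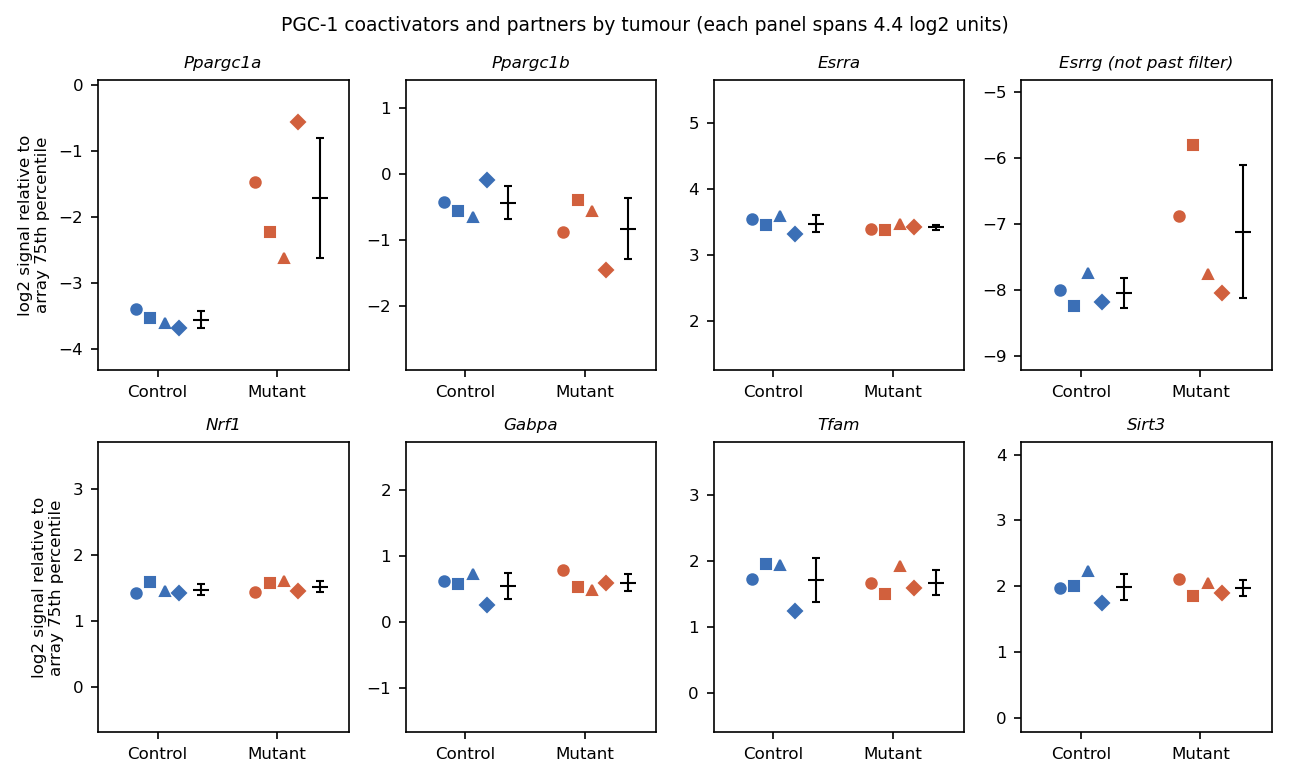
Log2 signal relative to the array 75th percentile of 1 probe per gene for the 8 genes, in Control (blue) and Mutant (orange) tumours; circles, squares, triangles and diamonds are replicates 1, 2, 3 and 4, and bars are the group mean ± SD (n = 4). Every panel has the same height in log2 units, so that the wide gap for Ppargc1a, with Control tumours between -3.68 and -3.39 and Mutant tumours between -2.62 and -0.55, can be set against the overlapping groups of the other genes.

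Ppargc1b, the gene of the more constant coactivator PGC-1 beta, tended the other way but its groups overlapped. Its brighter probe was at -0.43, -0.56, -0.65 and -0.09 in Control 1 to 4 and at -0.88, -0.40, -0.56 and -1.46 in Mutant 1 to 4. Mutant 4 and Mutant 1 lay below every Control tumour, and Mutant 2 and Mutant 3 lay within the Control range. The Ppargc1b difference was -0.39, standard error 0.25 (Control -0.43 ± 0.25, Mutant -0.82 ± 0.47, SD, n = 4 each), or 0.761-fold. It was -0.18 without Mutant 4, -0.14 within the first slide row and -0.64 within the second. The other probe, which reads a predicted transcript of the gene, differed by -0.11, with Control tumours between -3.03 and -2.17 and Mutant tumours between -3.15 and -2.25.

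The pair of tumours with the most Ppargc1a had the least Ppargc1b among Mutant tumours. Mutant 4 and Mutant 1 ranked first and second for Ppargc1a on both of its probes and last and second to last for Ppargc1b on both of its probes. Mutant 2 had the highest Ppargc1b of the Mutant tumours and Mutant 3 the lowest Ppargc1a. On the brighter probes, Control 1, 2 and 3 ranked in the same order for both genes, while Control 4 had the least Ppargc1a and the most Ppargc1b. With 4 tumours per group and groups that are apart for Ppargc1a, no correlation is given for this pair.

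The ERR receptors are the main partners of PGC-1 alpha for respiratory genes. Of their genes, Esrra showed no such pattern, and Esrrg was too dim to judge. Esrra was at 3.56, 3.46, 3.60 and 3.32 in Control 1 to 4 and at 3.39, 3.39, 3.47 and 3.44 in Mutant 1 to 4. Esrra differed by -0.06 (standard error 0.10), and all 4 Mutant tumours lay inside the Control range. Esrra is itself known as a target that PGC-1 alpha and ERR alpha raise together. Esrrg, the receptor typical of oxidative muscle and heart, had 2 probes, of which A_55_P2006499 was well above background on 0 of 8 arrays. A_55_P2799081 was above background in Mutant 2 alone, at -5.80 against -6.88 in Mutant 1 and -8.24 to -7.74 in the other 6 tumours, so no fold is given.

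Nrf1, nuclear respiratory factor 1 and not the stress factor Nfe2l1 that shares the abbreviation, had 4 probes. Its brightest probe was at 1.41, 1.59, 1.45 and 1.42 in Control 1 to 4 and at 1.44, 1.58, 1.60 and 1.45 in Mutant 1 to 4, differing by 0.05 (standard error 0.10). The 8 tumours spanned 0.19 log2 units on this probe. Of 3 further Nrf1 probes, which are assigned to other transcripts of the gene, 2 differed by -0.23 and -0.15, and A_55_P2481764 was well above background on 0 of 8 arrays. The probe that differed by -0.23, A_55_P2506320, had Control tumours between -0.12 and 0.28 and Mutant tumours between -0.32 and -0.05, with 3 of 4 Mutant tumours below every Control tumour. The sign of the Nrf1 difference therefore turned, to -0.11, when the gene's probes were averaged.

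Gabpa, the DNA-binding subunit of GABP, also known as nuclear respiratory factor 2, gave a like picture. The brightest of 3 probes was at 0.62, 0.57, 0.74 and 0.27 in Control 1 to 4 and at 0.79, 0.54, 0.49 and 0.59 in Mutant 1 to 4. It differed by 0.05 (standard error 0.13), and the other probes differed by -0.18 and -0.23. With the probes averaged the Gabpa difference was -0.12, and it was -0.04 without Control 4. The groups overlapped for all 3 probes.

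Tfam, the packaging and transcription factor of mitochondrial DNA, was at 1.72, 1.96, 1.94 and 1.25 in Control 1 to 4 and at 1.67, 1.50, 1.93 and 1.60 in Mutant 1 to 4. Control 4 was lowest, and the Mutant tumours lay inside the Control range. Tfam differed by -0.04 (standard error 0.19), or 0.969-fold, and the second probe differed by -0.09. Within slide rows the Tfam difference was -0.26 and 0.17, so the sign was not the same in both.

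Sirt3, the main deacetylase of the mitochondrial matrix, was at 1.98, 2.01, 2.23 and 1.74 in Control 1 to 4 and at 2.11, 1.85, 2.05 and 1.91 in Mutant 1 to 4. The groups overlapped fully, and Sirt3 differed by -0.01 (standard error 0.13).

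Without Ppargc1a, the 6 tested members had differences between -0.39 and 0.05, with 2 above and 4 below 0. The median over all 7 tested members was -0.01, and that of all 16068 genes was 0.01. By probe rather than gene, 10 of 12 probes of these 6 genes were below 0 and 2 above, and the groups overlapped for all 12. Probes of the same gene are not replicates, so these are not 12 separate results. Over all 16068 genes tested, 8419 were above 0 and 7649 below. What the members shared across tumours was the place of Control 4, which had the lowest level in 5 of the 7 tested members, Ppargc1a, Esrra, Tfam, Gabpa and Sirt3, but the highest in Ppargc1b. Control 4 was the lowest tumour for 35.2% of all genes too, and the highest for 22.4%.

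**Figure D2:**
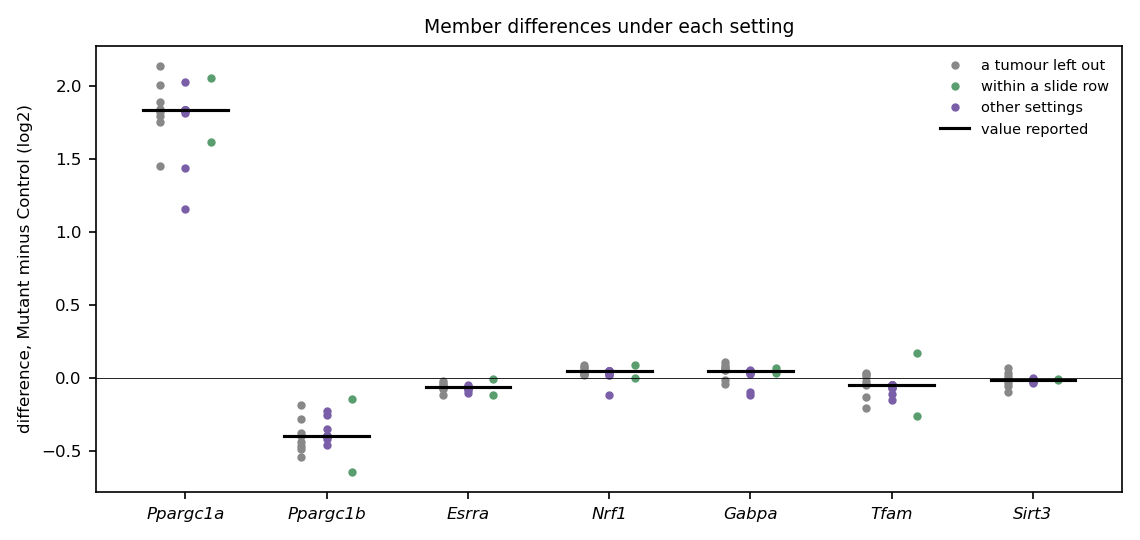
Differences (Mutant minus Control, log2) of the 7 tested members; the black bar is the value reported, grey points leave out 1 tumour each, green points are values within 1 slide row, and purple points are other normalizations, filters, probe rules and models. Ppargc1a stays between 1.16 and 2.14 in all of these, Ppargc1b between -0.64 and -0.14, and the values of Nrf1, Gabpa, Tfam and Sirt3 fall on both sides of 0.

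The remaining genes of the pathway were taken from 15 lists, which together hold 333 genes, of which 319 were tested. Across these lists 0 genes passed at an adjusted p under 0.05 (limma, Benjamini-Hochberg), as 0% did over all genes. Counts above and below 0 in the lists stand beside 8419 above and 7649 below among all 16068 genes tested. Counts of genes at least 2-fold higher stand beside 359 (2.23%) of all genes tested. The unadjusted p only served to pick examples, and each tested example named below had an adjusted p of 1.00.

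Among coactivators and nuclear partners outside the members, 18 of 26 tested genes were above 0 and 8 below, with a median difference of 0.07. Pprc1, the remaining coactivator of the family, was at 1.98, 1.72, 2.36 and 1.94 in Control 1 to 4 and at 1.94, 2.15, 1.99 and 2.23 in Mutant 1 to 4, a difference of 0.08. Gabpb1, the partner subunit of Gabpa, differed by 0.12, the PGC-1 docking protein Hcfc1 by 0.20 and the corepressor Nrip1, which opposes PGC-1 alpha at nuclear receptors, by 0.39. The nuclear receptors Thrb and Ppara, which bind thyroid hormone and fatty acids, differed by 1.57 (standard error 0.92) and 0.74 (0.33), and the other thyroid hormone receptor Thra by -0.29. Perm1, a muscle regulator that PGC-1 alpha and ERR receptors induce, was above background in 1 Mutant tumour and in 0 Control tumours.

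Upstream regulators of PGC-1 alpha had a median difference of 0.04 over 32 tested genes, 20 above and 12 below 0. Fbxw7, a ubiquitin ligase subunit that targets PGC-1 alpha protein, was at 0.96, 1.16, 0.72 and 0.96 in Control 1 to 4 and at 1.16, 1.26, 1.21 and 1.31 in Mutant 1 to 4. Every Mutant tumour lay above every Control tumour for Fbxw7, though Mutant 1 and Control 2 were close, and the difference was 0.28. The AMPK subunit gene Prkag3 differed by 0.78 and the class II deacetylase Hdac5 by -0.27. Prkaa2, a catalytic AMPK subunit that is prominent in muscle, cleared background on 0 of 4 Control arrays and in Mutant 1, 2 and 4, at -4.70, -3.88 and -4.41. Its Mutant mean was at least 1.57-fold above the Control bound, and the measured means were -7.05 and -5.11.

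Sirt1, which deacetylates PGC-1 alpha, differed by 0.05, and all 6 sirtuin genes other than Sirt3 were at or above 0, with a median of 0.11 and Sirt4 highest at 0.30. Of 11 tested substrates of SIRT3, 6 were above 0 and 5 below, with a median of 0.12, which was -0.01 with array weights and -0.05 within the second slide row. Foxo3 differed by -0.38, Shmt2, a mitochondrial folate enzyme, by -0.40, and Acadl, a fatty acid dehydrogenase, by 0.30.

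Genes of mitochondrial DNA upkeep and expression were level between the groups. Signs of these list medians differed with the tumour left out. The median was 0.00 over 25 genes of replication and transcription, of which 13 were above and 12 below 0. The mitochondrial RNA polymerase Polrmt differed by 0.07, the initiation factors Tfb1m and Tfb2m by 0.03 and 0.17, the helicase Twnk by -0.12, the DNA polymerase subunit Polg by 0.00, the termination factor relative Mterf4 by 0.67 and the nucleotide reductase subunit Rrm2b by -0.37. Over 35 genes of the mitochondrial ribosome and its factors the range was -0.13 to 0.25, with 17 above and 18 below 0. Over 33 import and chaperone genes the median was -0.02, with 13 above and 20 below 0, and Tomm40l (0.46) and Hspa9 (-0.29) were the members with the lowest unadjusted p.

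Respiratory chain subunits, the classical readout of PGC-1 activity, had a median difference of -0.02 over 31 genes, of which 12 were above and 19 below 0. None lay outside -0.14 to 0.14. Cytochrome c (Cycs) differed by -0.03, Cox4i1 by -0.10, Ndufb8 by -0.06, Uqcrc2 by -0.02 and Atp5b by -0.14. The list level, which is the mean log2 signal of its genes after each is centred over the 8 tumours, ran from -0.23 to 0.22 in Control and from -0.08 to 0.07 in Mutant tumours. The Mutant tumours thus lay inside the Control range, with Control 4 lowest and Control 3 highest.

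In the citric acid cycle and its entry 17 of 28 genes were above 0 and the median was 0.03. Citrate synthase (Cs), a usual marker of mitochondrial content, differed by 0.04, and Sdhb, which is also a respiratory chain subunit, by 0.07. The widest differences in the list were those of 2 kinases that switch off pyruvate dehydrogenase. Pdk4, which PGC-1 alpha and ERR alpha are known to raise in muscle, was at -5.34, -4.80, -7.27 and -3.82 in Control 1 to 4 and at -2.18, -0.90, -4.83 and -2.61 in Mutant 1 to 4. Mutant 1, 2 and 4 exceeded all Control tumours for Pdk4, whereas Mutant 3 did not. The difference was 2.68 (standard error 0.96), with 3 of 4 Control arrays above background. Pdk1, a target of hypoxia-inducible factors, differed by -0.76.

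Fatty acid oxidation genes had a median of 0.07 over 29 genes, 22 above and 7 below 0. Cpt1a, the entry enzyme found in most tissues, differed by 0.41, with every Mutant tumour but Mutant 3 above all Control tumours, and its muscle counterpart Cpt1b by 0.20. Acadm, a standard PGC-1 and ERR target, differed by -0.08, and Ucp3 by 0.36. Antioxidant genes of mitochondria had a median of 0.01 over 12 genes, 6 above and 6 below 0, and Sod2, the matrix superoxide dismutase, differed by 0.16. Fusion, fission and mitophagy genes had a median of 0.07 over 23, with 14 above and 9 below 0. In that list Mfn2, a fusion protein that PGC-1 alpha and ERR alpha raise in muscle, differed by -0.01, Oma1 by 0.25 and the mitophagy receptor Bnip3 by -1.23.

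**Figure D3:**
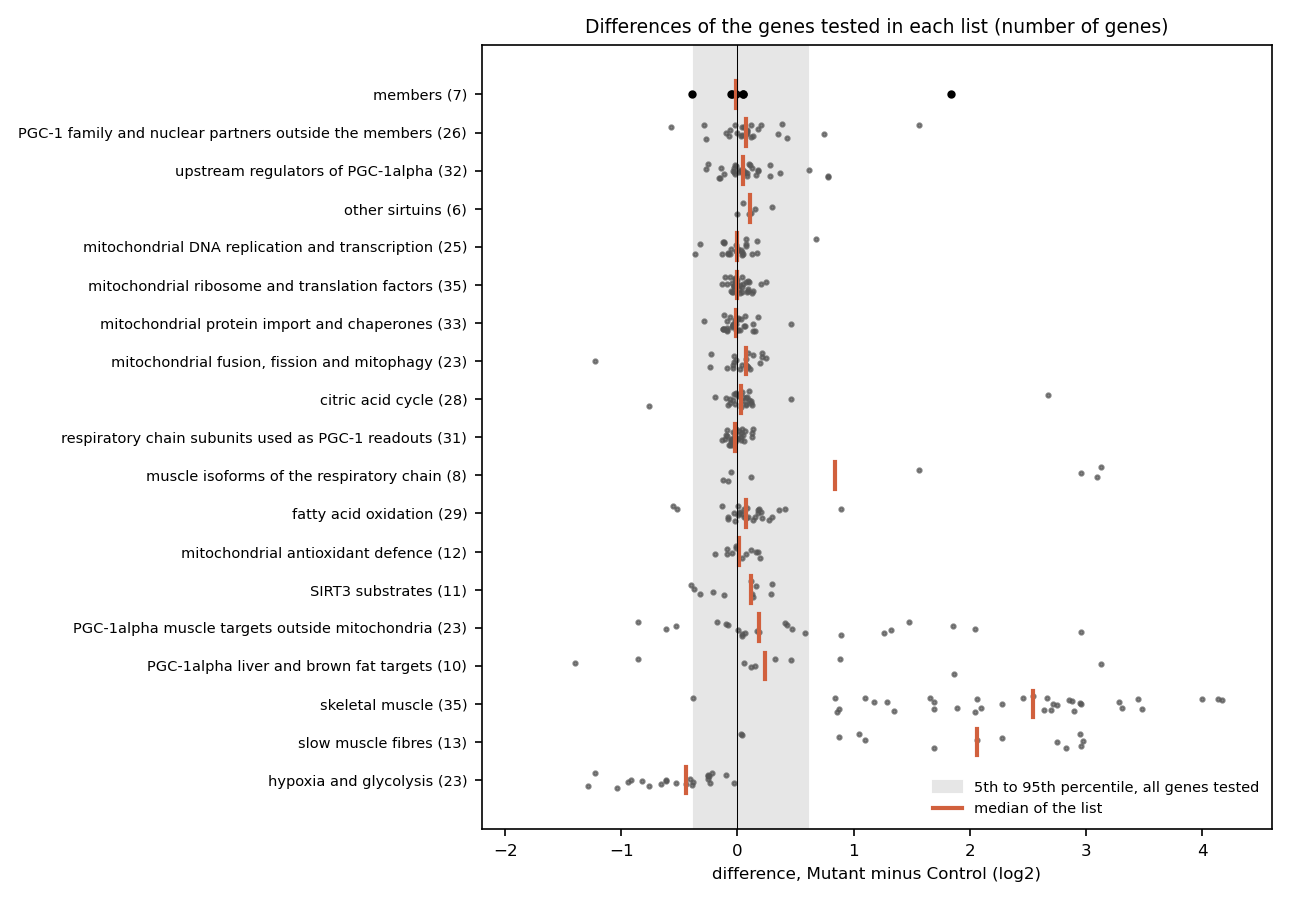
Differences (Mutant minus Control, log2) of every tested gene in each list, 1 dot per gene, with the median of each list as an orange bar and the range from the 5th to the 95th percentile of all tested genes (-0.38 to 0.60) in grey. Lists of mitochondrial DNA, translation, import and respiratory genes sit close to 0, the lists that hold muscle genes reach far to the right, and all hypoxia and glycolysis genes lie below 0.

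Wider differences were found in the genes that PGC-1 alpha shares with muscle tissue. Of 8 muscle isoforms and related genes of the respiratory chain, 5 were above 0 and 4 of them at least 2-fold higher, with a median of 0.84. That median was -0.05 over the genes whose probes were above background on all arrays, and -0.03 with the skeletal muscle level as a covariate. Ckmt2, the sarcomeric mitochondrial creatine kinase, differed by 3.09 (standard error 1.05), Cox8b by 3.13 (1.23) and Cox6a2 by 1.56 (0.71), while Cox7a1, also a muscle isoform, differed by 0.12. Ckmt2 was above background on 2 of 4 Control arrays and Cox8b on 3 of 4, so their differences rest in part on dim signals. In a list of 23 muscle targets of PGC-1 alpha, 17 were above 0, with a median of 0.18 and 6 at least 2-fold higher. Slc2a4, the insulin-regulated glucose transporter, differed by 1.32, Fndc5, the precursor of irisin, by 1.26, the neuromuscular kinase Musk by 2.04, Ldhd by 0.47 and Vegfa by -0.61. Musk was above background on 1 Control and 3 Mutant arrays and Fndc5 on 3 Control arrays, so the same limit holds for them.

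Skeletal muscle markers had mostly higher values in Mutant tumours, but the groups overlapped and neither the genes nor the list level passed a test. All 35 markers were tested, 34 were above 0 and 31 at least 2-fold higher, where 2.23% of all genes tested were. The median was 2.54, while 0 markers passed the adjusted threshold of limma. Control 1 to 4 had muscle list levels of -0.56, 0.35, -1.62 and -2.82, and Mutant 1 to 4 of 1.62, 2.42, -0.80 and 1.41. An exact permutation test, two-sided, gave p = 0.0857, or 0.352 after adjustment over 32 lists. This list and those below were chosen with earlier results of these data known. Their p-values therefore describe these tumours and are not independent evidence. None of the markers was below background in all Control tumours, and 28 of 35 were above it on all 8 arrays. The 14 fast fibre genes had a median of 2.81 and the 13 tested slow fibre genes one of 2.06, with Myh4 (fast) at 3.99, Tnnt3 (fast) at 2.54, Myh7 (slow) at 1.70 and Tnnt1 (slow) at 2.06.

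The order of the tumours by muscle level was in part that of Ppargc1a on its brighter probe. Mutant 1, 2 and 4 lay above all other tumours for both, and Control 3 and Control 4 below all others. Mutant 3 was the lowest Mutant tumour for both. Other places in the order differed. Control 2 had a higher muscle level than Mutant 3, 0.35 against -0.80, and a lower Ppargc1a level, -3.53 against -2.62. The Control tumours ranged over 3.17 log2 units in muscle level and over 0.30 in Ppargc1a. Mutant 2 was highest for muscle and ranked below Mutant 4 and Mutant 1 for Ppargc1a, while Mutant 4 was highest for Ppargc1a and ranked below Mutant 2 and Mutant 1 for muscle. With the muscle level as a covariate, a setting chosen with earlier results of these data known, the Ppargc1a difference was 1.44 with a standard error of 0.58, or 2.72-fold. The part of muscle tissue in the Ppargc1a difference was not tested beyond these values.

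**Figure D4:**
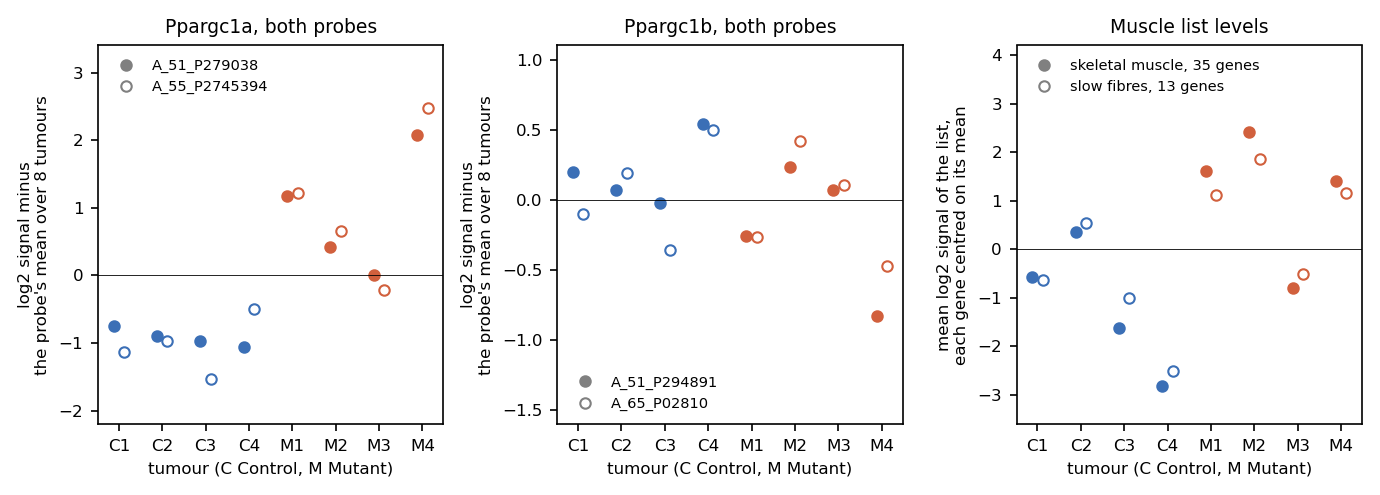
Level of each tumour relative to the mean of the 8 tumours (log2) for both probes of Ppargc1a (left), both probes of Ppargc1b (centre) and the skeletal muscle and slow fibre lists (right), in Control (blue, C) and Mutant (orange, M) tumours; filled and open circles are the 2 probes or lists of a panel. Mutant 1, 2 and 4 lie above all other tumours for both Ppargc1a and muscle. Mutant 4 is highest for Ppargc1a and lowest for Ppargc1b, while Mutant 2 is highest for muscle. Mutant 3 lies above all Control tumours for Ppargc1a but below Control 2 for muscle.

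Brown fat and liver are the other tissues in which PGC-1 alpha is prominent. Of 10 brown or beige fat markers 8 were tested, 6 of them above 0, with a median of 0.54, which was 0.08 with normexp background correction and 0.22 with no filter on dim probes. Ucp1, the defining uncoupling protein of brown fat, was well above background on 0 of 8 arrays. The list level lay between -0.68 and -0.15 in Control and between -0.12 and 0.71 in Mutant tumours (two-sided exact permutation p = 0.0286, the smallest 4 against 4 tumours allow, and 0.352 after Benjamini-Hochberg adjustment over 32 lists). The choice of the list with earlier results of these data known limits that p-value. No conclusion is drawn from it. The highest member of the brown or beige fat list was Cox8b at 3.13, which muscle also expresses. The list held Ppara at 0.74 and Cidea at 0.88, the latter above background on 1 of 4 Control arrays. The 2 tested markers below 0 were Tmem26 at -1.40 and Otop1 at -0.02, named after their values were seen. Of 16 liver and brown fat targets of PGC-1 alpha 10 were tested, 8 above 0 and 2 below, with a median of 0.24. The gluconeogenic enzyme G6pc, above background on 3 of 4 Control arrays, differed by 0.46. The 2 below 0 were Tmem26 and Fgf21 (-0.85), the latter also named after its value was seen. The 6 that did not pass the filter include Pck1 and Ucp1. Of 10 hepatocyte markers 3 were tested.

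Hypoxia and glycolysis genes, many of them targets of hypoxia-inducible factors, were below 0 in all 23 tested cases, with a median of -0.44. Ankrd37 differed by -1.29, Kdm3a by -0.53 and P4ha1 by -0.61, the last with every Mutant tumour below every Control tumour (limma adjusted p = 1.00 for each). Control 1 to 4 had hypoxia levels of 0.12, 0.26, 0.80 and -0.08, and Mutant 1 to 4 of -0.47, -0.41, 0.33 and -0.54. An exact permutation test, two-sided, gave p = 0.114, or 0.352 after adjustment over 32 lists. Mutant 3, the Mutant tumour with the least Ppargc1a, had the highest hypoxia level of its group, and Mutant 4, with the most Ppargc1a, the lowest. Among Control tumours it was otherwise on the brighter Ppargc1a probe, as Control 4 had both the least Ppargc1a and the lowest hypoxia level. On the dimmer probe, which cleared background on 0 of 4 Control arrays, Control 4 was instead the highest Control tumour, at -5.70. The remaining cell type lists had medians between -0.50, for ductal and epithelial markers, and 0.50, for keratinocyte and smooth muscle markers. The keratinocyte median was -0.01 without Mutant 3. The 4 tested acinar and islet markers of 10 had a median of 0.43, and 0.15 with normexp. Their level lay between -0.42 and -0.08 in Control and between -0.02 and 0.41 in Mutant tumours (two-sided exact permutation p = 0.0286, and 0.352 after adjustment over 32 lists). The acinar and islet list too was chosen with earlier results of these data known.

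The genes whose levels followed Ppargc1a most closely over the 8 tumours were Selenon (Pearson r = 0.94), Apoc2 (0.93), 1700124L16Rik (0.93), Zscan26 (0.93) and 1600014C10Rik (0.93). Apoc2, an apolipoprotein that activates lipoprotein lipase, averaged 1.56 in Control and 2.43 in Mutant tumours, and like Ppargc1a it was highest in Mutant 4 and Mutant 1. Selenon, the endoplasmic reticulum selenoprotein N, ranged from 3.25 to 3.52. After each group's mean was subtracted, the closest were Msantd1 (0.97), Gapvd1 (0.96), Atg16l2 (0.96), Syvn1 (0.95) and B430306N03Rik (0.94). Ppargc1a had an SD of 0.91 in Mutant and 0.13 in Control tumours, so these correlations rest mostly on the Mutant tumours. Syvn1, a ubiquitin ligase of the endoplasmic reticulum, was at 4.43 to 4.77 in Control tumours and from 4.57 in Mutant 3 to 5.40 in Mutant 4. The correlations of both kinds are the highest among 16043 other genes with a value in every tumour. They are over 8 tumours that share 1 slide, and they carry no test.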

How the data were processed

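Total RNA (0.5 ug per tumour) was labelled with Cy3 per the labels' protocols and scanned on Agilent mouse arrays of 1 colour. Spot intensity was extracted with Agilent Feature Extraction, version 10.7.3.1 per the file headers and 9.1 per the submitters' processing notes. The deposited signal, background-subtracted and detrended within each array, is linear and was not scaled across arrays. The flag columns the authors deposited (other) have no unit. The deposited value table holds the same intensity, equal within 0.01% for 99.5% of probes on each array, with column medians of 52.8 to 61.8. Its scale is linear and uncentred, and no direction is involved.

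Outlier spots (66 to 117 per array) were dropped, spots of a probe averaged, and log2 signals centred on the array's 75th percentile (575.9 to 740.7). Probes were named through their RefSeq accession from a gene table of assembly GRCm38.p6 (32994 of 56605 probes matched 1 gene, 23611 none and 0 several). The array design uses another build, so no coordinates are given, and no sequence tables were used. The filter required a probe to clear background on 4 or more of 8 arrays, and each gene was represented by its probe of highest mean, giving 16068 genes. A missing spot (18 values over all tested genes, 0 among members) drops that tumour for the gene. limma 3.58.1 in R 4.3.3 was fitted on the group alone, and p-values were adjusted over all genes by Benjamini-Hochberg. The fit was tested on simulated data. Precision is limited by 4 arrays per group.

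The members, the 15 pathway lists and 17 cell type lists were chosen with earlier results of these data known. Named genes are the members, 34 genes fixed by name (Cox5b among them was not matched here), up to 3 genes of smallest unadjusted p in each pathway list and in the muscle, brown fat and hypoxia lists, and the 5 genes most like Ppargc1a by each measure. Not all of them are described. A fold given as "at least" sets the mean of the brighter group against, per array of the dimmer group, the lowest signal that cleared background or the signal of the probe itself, whichever was higher. The planned promoter motif search was not run, since no sequences were given. Alternatives were normexp (on median spot and background signals, as the mean signal was not among the columns), quantile and median normalization, 3 filters, averaged probes, the deposited table, a variance trend, array weights, replicate number and slide row as blocks, values within rows, the muscle level as a covariate and leaving out each tumour.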

Additional observations from a re-analysis of the deposited data

Results flagged for a closer look

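In groups of 4 tumours, 14 of 256 sets of values had 1 tumour far from the other 3, where chance gives about 1 in 20. One of these was a member probe, Gabpa probe A_51_P364984, at -0.71 in Control 3 against -1.38 to -1.26 in the other Control tumours. Control 4 was low for Gabpb1 (1.46 against 2.05 to 2.17), Twnk (-1.61 against -1.07 to -0.98), Polg (0.59 against 0.78 to 0.81) and the citric acid cycle list (-0.23 against 0.00 to 0.02). Control 3 was high for Bnip3 (5.72 against 4.74 to 4.87) and Control 1 for Foxo3 (-0.99 against -1.70 to -1.60). Mutant 3 was low for Ckmt2 (-5.20 against -2.29 to -1.86), Musk (-6.83 against -4.17 to -4.15) and the T and NK cell list (-0.87 against 0.50 to 0.69). Mutant 3 was high for Hdac5 (3.87 against 3.62 to 3.66), G6pc (-4.40 against -4.86 to -4.81) and the hypoxia and glycolysis list (0.33 against -0.54 to -0.41). Mutant 2 was low for P4ha1 (-0.13 against 0.13 to 0.15).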

How the results depend on the processing

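The number of genes at an adjusted p under 0.05 was 0 under all 23 alternatives, and the median difference over the 7 tested members, -0.01, ranged from -0.09 to 0.04 over them. The Ppargc1a difference was above 0 and that of Ppargc1b and Esrra below 0 in all 23. The sign differed from the reported one in 1 of 23 alternatives for Nrf1, 4 for Gabpa, 4 for Tfam and 3 for Sirt3. Medians of the mitochondrial DNA, ribosome, import and respiratory chain lists stayed between -0.10 and 0.12 and changed sign, for example, without Control 3 or Control 4. The count at an unadjusted p under 0.05, 467, was 1280 with array weights, 147 with the muscle level as a covariate, 1912 and 621 within the slide rows, and 195 (without Mutant 1) to 972 (without Control 2) with a tumour left out. The cause was not tested. The median of the skeletal muscle list, 2.54, was 0.07 with its own level as a covariate, as that setting is built to do, and the median of the muscle isoforms of the respiratory chain was then -0.03 in place of 0.84. The latter was -0.05 with probes above background on all arrays, where fewer genes are tested. Replicate numbers do not pair the tumours: same-numbered tumours' deviations correlated at 0.08, -0.31, 0.05 and -0.31, and with the replicate number as a block 0 genes passed, 371 had an unadjusted p under 0.05 and the Ppargc1a difference stayed at 1.84. Signs also differed in some alternatives for the lists of PGC-1 partners, upstream regulators, the citric acid cycle, antioxidant genes and SIRT3 substrates. Signals near background limit the second Ppargc1a probe, Esrrg, Perm1, Prkaa2, Ckmt2, Cox8b, Pdk4, Fndc5, Musk, Cidea and G6pc.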
